A study of Mus musculus with 6 samples.

Results

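The genes described here are 9 transcription factors and outputs of the circadian clock, measured in mouse liver: the PAR bZIP genes Dbp, Tef and Hlf, the repressor genes Nfil3, Bhlhe40, Bhlhe41 and Ciart, the nuclear receptor gene Rora and the cell cycle kinase gene Wee1. They were taken by name, as probe sets with a single annotated symbol among these 9, which gave 10 probe sets (2 for Ciart, 1 for each other gene) out of 35512 probe sets and 19938 singly named genes. The livers came from 6 female mice of the C57BL/6 background, 3 months old, from which food had been withheld for 6 h. Of these, 3 were LmnaG609G/G609G knock-in mice (numbered 1, 3 and 5) and 3 were wild-type, Lmna+/+ mice (numbered 2, 4 and 6), with 1 array for each mouse. The allele is a germline point change in Lmna, the gene of lamins A and C, that alters splicing so that a truncated prelamin A is made, and homozygous mice serve as a model of Hutchinson-Gilford progeria. The labels do not give the time of day at which the animals were killed. With 1 array for each mouse, a changed level and a shifted daily phase of a rhythmic gene cannot be told apart.

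The clock of liver cells runs on a loop in which BMAL1 (encoded by Arntl) and CLOCK bind E-box sequences and drive the genes of their own inhibitors, the PER and CRY proteins. DBP, TEF and HLF are activators of the PAR bZIP family that bind D-box sequences, while NFIL3 (E4BP4) binds the same sequences and represses, and Dbp and Nfil3 transcripts are known to peak at opposite phases of the day in liver. RORA activates and the REV-ERB receptors (Nr1d1 and Nr1d2) repress through a shared response element, which is known from Arntl and Nfil3 among other genes. BHLHE40 and BHLHE41 (DEC1 and DEC2) and CIART (CHRONO) restrain BMAL1 and CLOCK, and Wee1 is a clock-driven gene whose kinase holds back entry into mitosis.

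Promoter windows of 300 bases (250 before to 50 after the annotated start) were taken from RefSeq, build GRCm38.p6, where 7 of the 9 genes matched (all but Bhlhe40 and Wee1) with 8 windows, 2 of them of Tef. Exact matches were sought on both strands to the D-box as TTATGTAA, TTACGTAA or TTATGCAA, to the E-box as CACGTG, to the cyclic AMP response element as TGACGTCA, and to the ROR/REV-ERB motif as TAGGTCA. No matches overlapped in the windows shown. Of all 32851 windows, 1.78% held a D-box, 7.15% an E-box, 1.79% the cyclic AMP response element and 2.61% the ROR/REV-ERB motif. Among the 8 windows of the clock outputs, 4 held an E-box (both of Tef, and those of Bhlhe41 and Ciart), 1 the cyclic AMP response element (Hlf), 1 the ROR/REV-ERB motif (Nfil3) and 0 a D-box. The windows below are those of the clock output that rose most (Nfil3), of both PAR bZIP genes that fell (Dbp and Hlf), of the window with 3 E-boxes (Ciart), and of 2 clock loop genes with a D-box (Per1 and Per3), with matches in capitals and all read 5′ to 3′ along the gene.
Nfil3, chr13:52980990-52981289, minus strand: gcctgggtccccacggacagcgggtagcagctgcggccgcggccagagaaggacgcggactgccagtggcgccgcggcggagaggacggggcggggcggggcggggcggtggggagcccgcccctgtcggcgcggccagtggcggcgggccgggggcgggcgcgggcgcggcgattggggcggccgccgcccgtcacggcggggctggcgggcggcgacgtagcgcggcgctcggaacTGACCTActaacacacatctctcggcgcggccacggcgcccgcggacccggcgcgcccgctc
Dbp, chr7:45704997-45705296, plus strand: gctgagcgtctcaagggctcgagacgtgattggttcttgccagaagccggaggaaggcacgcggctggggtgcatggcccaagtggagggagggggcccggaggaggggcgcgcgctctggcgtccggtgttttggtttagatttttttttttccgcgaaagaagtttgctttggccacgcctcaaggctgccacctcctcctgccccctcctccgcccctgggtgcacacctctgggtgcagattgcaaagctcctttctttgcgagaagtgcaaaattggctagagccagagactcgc
Hlf, chr11:90390868-90391167, minus strand: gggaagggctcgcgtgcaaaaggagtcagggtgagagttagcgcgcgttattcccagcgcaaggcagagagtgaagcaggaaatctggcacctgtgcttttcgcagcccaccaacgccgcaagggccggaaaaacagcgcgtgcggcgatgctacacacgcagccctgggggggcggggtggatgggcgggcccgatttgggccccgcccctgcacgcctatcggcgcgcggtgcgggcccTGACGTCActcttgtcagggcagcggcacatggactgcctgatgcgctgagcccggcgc
Ciart, chr3:95882179-95882478, minus strand: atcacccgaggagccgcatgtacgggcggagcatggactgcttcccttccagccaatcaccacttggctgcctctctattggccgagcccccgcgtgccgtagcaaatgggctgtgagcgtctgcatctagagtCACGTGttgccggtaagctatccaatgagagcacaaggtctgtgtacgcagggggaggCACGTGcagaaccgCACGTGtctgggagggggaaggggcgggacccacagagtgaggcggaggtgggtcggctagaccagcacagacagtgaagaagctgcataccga
Per1, chr11:69098699-69098998, plus strand: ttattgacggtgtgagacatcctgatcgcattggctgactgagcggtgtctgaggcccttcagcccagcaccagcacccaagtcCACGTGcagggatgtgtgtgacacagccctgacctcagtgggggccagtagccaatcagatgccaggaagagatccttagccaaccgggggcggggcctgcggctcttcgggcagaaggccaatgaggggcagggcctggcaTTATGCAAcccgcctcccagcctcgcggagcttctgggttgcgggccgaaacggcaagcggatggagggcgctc
Per3, chr4:151044616-151044915, minus strand: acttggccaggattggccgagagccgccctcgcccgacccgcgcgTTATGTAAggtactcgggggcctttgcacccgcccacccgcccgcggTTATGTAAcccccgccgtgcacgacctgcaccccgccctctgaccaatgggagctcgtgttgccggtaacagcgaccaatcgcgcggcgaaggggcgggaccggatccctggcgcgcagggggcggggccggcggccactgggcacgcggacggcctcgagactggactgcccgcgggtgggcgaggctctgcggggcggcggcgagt
In Nfil3 the ROR/REV-ERB motif lies 12 to 6 bases before the start, and in Hlf the cyclic AMP response element lies 9 to 2 bases before it. The E-boxes of Ciart begin 116, 58 and 44 bases before the start, and the D-boxes of Per3 begin 205 and 158 bases before it. Per1 has 2 windows in the table: the one printed has a D-box that begins 24 bases and an E-box that begins 166 bases before its start, and the other holds none of the motifs. A match is a description of these letters only, and the window of Dbp holds none of them.

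Probe sets were compared between the genotypes with limma over all 26664 probe sets at or above the 25th percentile of mean intensity, and "rose" or "fell" means a Benjamini-Hochberg adjusted p below 0.05 over that whole table. Of all tested probe sets 25.9% were called, 15.0% as higher and 10.9% as lower in knock-in liver (with each array centred on its median, 47.8% of the calls were higher, against 57.8% without), and at 41.2% the genotypes did not overlap. Array medians lay between 97.0 and 104 intensity units, intensities of different probe sets are not comparable with each other, and with 3 mice per genotype the number of arrays limits the precision. Lmna itself read 290, 249 and 258 in knock-in and 282, 267 and 362 in wild-type mice (log2 change -0.17 ± 0.13 (SE), limma adjusted p = 0.398), and its single probe set does not separate the splice forms, so it does not check the genotype. The gene lists below count 1 probe set per gene. By the brightest tested probe set of each of the 12727 genes with a promoter window, 13.2% rose and 14.3% fell. Of the 9 clock outputs, 8 had a tested probe set. Nfil3 and Rora rose, Dbp, Hlf and Wee1 fell, and Tef, Bhlhe40 and Ciart did not pass. The median size of the log2 change, sign aside, was 1.04 over these 8 and 0.18 over all tested probe sets, and the genotypes did not overlap for 6 of the 8.

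**Figure D1:**
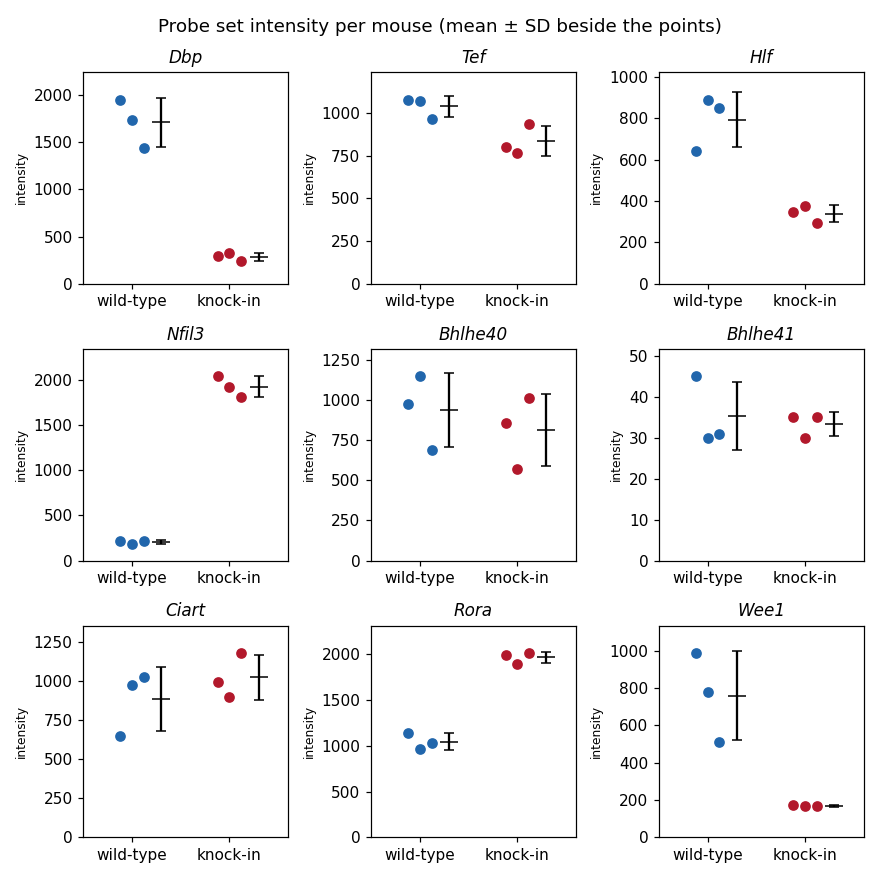
Probe set intensity (linear scale from 0, a separate scale for each gene) of each wild-type (blue) and knock-in (red) mouse, with the mean and SD of 3 mice beside the points. Nfil3 and Rora are higher in all 3 knock-in mice, Dbp, Hlf, Wee1 and, by a smaller margin, Tef are lower in all 3, and the genotypes overlap for Bhlhe40, Bhlhe41 and Ciart.

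The 3 PAR bZIP activators were all lower in knock-in liver in every mouse, but by very different amounts, and 2 of the 3 passed the test. Dbp, the family's most strongly rhythmic member in liver (probe set 10553092), read 291, 324 and 240 in knock-in mice 1, 3 and 5, and 1953, 1734 and 1442 in wild-type mice 2, 4 and 6. The lowest wild-type value was thus far above the highest knock-in value. The means were 285 ± 42.3 and 1710 ± 256 (SD, n = 3), and Dbp fell 5.73-fold (log2 change -2.52 ± 0.15 (SE), 95% interval -2.87 to -2.16, limma adjusted p = 0.000182). By size of change, Dbp stood at rank 98 of the 26664 tested probe sets.

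Hlf, the family member first known from a leukaemia fusion (probe set 10389786), read 346, 377 and 294 in knock-in and 640, 890 and 847 in wild-type liver. All knock-in values were again below all wild-type values, and wild-type mouse 2 was the lowest wild-type mouse, whereas for Dbp it was the highest. Hlf fell 2.27-fold (log2 change -1.18 ± 0.15 (SE), 95% interval -1.54 to -0.82, limma adjusted p = 0.00220). In this bulk RNA, fewer cells of a type and less RNA per cell cannot be told apart, for Hlf as for the other genes.

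Tef, the third activator (probe set 10425601), read 803, 767 and 935 in knock-in and 1078, 1070 and 966 in wild-type mice. The genotypes did not overlap, but knock-in mouse 5 and wild-type mouse 6 lay close to each other. The log2 change of -0.31 ± 0.11 (SE; 1.24-fold, 95% interval -0.57 to -0.06) did not pass (limma adjusted p = 0.0761). It passed without knock-in mouse 5 (log2 change -0.39, limma adjusted p = 0.0447) and with each array centred on its median (log2 change -0.36, limma adjusted p = 0.0496), while over all alternatives the adjusted p ran from 0.0447 to 0.208.

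The gene of the D-box repressor moved the other way. Nfil3 (probe set 10409278) read 2035, 1919 and 1811 in knock-in mice and 216, 184 and 216 in wild-type mice, with little spread inside either genotype. The means were 1922 ± 112 and 205 ± 18.5 (SD, n = 3), and Nfil3 rose 8.77-fold (log2 change 3.13 ± 0.11 (SE), 95% interval 2.89 to 3.38, limma adjusted p = 4.06e-05). It stood at rank 44 of the 26664 tested probe sets by size of change, ahead of the 7 other tested clock outputs.

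Because DBP, TEF, HLF and NFIL3 share the D-box, the log2 value of Nfil3 was set against that of each activator gene within each array, which no scaling of whole arrays can move. The absolute level of such a difference has no meaning across probe sets, and only its shift between mice can be read. Nfil3 minus Dbp was 2.74, 2.51 and 2.84 in knock-in mice and -3.09, -3.13 and -2.65 in wild-type mice, a shift of 5.65 between the genotype means. The corresponding shift was 4.31 for Nfil3 minus Hlf and 3.44 for Nfil3 minus Tef. Among the activators, Tef minus Dbp was 1.42, 1.20 and 1.89 in knock-in and -0.85, -0.69 and -0.57 in wild-type mice, a shift of 2.21. Hlf minus Dbp lay between 0.21 and 0.28 in knock-in and between -1.59 and -0.76 in wild-type mice, a shift of 1.34. Both differences were higher on every knock-in array than on every wild-type array. Each shift is the difference of 2 log2 changes given above, so it adds no separate result. The differences were not tested.

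**Figure D2:**
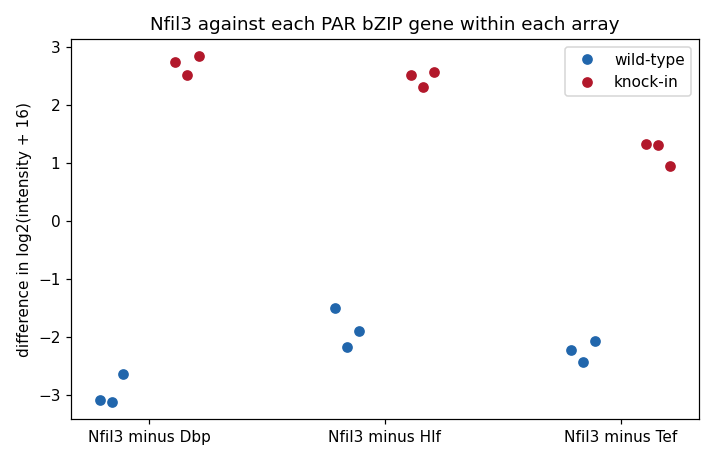
Difference in log2(intensity + 16) between Nfil3 and each PAR bZIP gene within 1 array, for wild-type (blue) and knock-in (red) mice, 1 point per mouse. The genotype means lie apart by 5.65 for Dbp, 4.31 for Hlf and 3.44 for Tef, which follows from the log2 changes of the genes. Only the distance between the colours can be read, not the height.

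Rora, the receptor that drives transcription from the ROR/REV-ERB element, was higher in knock-in liver. Its probe set (10586700) read 1987, 1894 and 2010 in knock-in and 1142, 966 and 1027 in wild-type mice, without overlap and with an SD of 61.4 and 89.4 intensity units. Rora rose 1.87-fold (log2 change 0.90 ± 0.10 (SE), 95% interval 0.68 to 1.13, limma adjusted p = 0.00115). The REV-ERB genes, whose products compete for the same element, did not pass. Nr1d1 read 1268, 1449 and 1809 in knock-in and 2574, 1743 and 1932 in wild-type mice (log2 change -0.46 ± 0.18 (SE), limma adjusted p = 0.107, and adjusted p = 0.0483 with array weights). For Nr1d2 the log2 change was -0.07 ± 0.09 (SE, limma adjusted p = 0.630). Arntl and Nfil3, both known to carry this element, rose 9.59-fold and 8.77-fold. Of all tested genes with the ROR/REV-ERB motif in their promoter window, 10.9% rose and 17.1% fell (13.2% and 14.3% of all genes with a window). Whether RORA took part in any of these changes was not tested.

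Ciart and Bhlhe40, whose products restrain BMAL1 and CLOCK, showed no called difference, and Bhlhe41 was not tested. The PER and CRY genes are given with the core loop below. For Ciart the annotation lists 2 probe sets with the same transcripts, but whether both target the Ciart locus was not tested, so 1 of them may read another locus. The brighter (10373452) gave 991, 900 and 1178 in knock-in and 647, 977 and 1024 in wild-type mice, and the other (10500272) gave 652, 586 and 827 against 468, 748 and 718. Both overlapped between the genotypes, and in both wild-type mouse 2 was lowest and knock-in mouse 5 highest. Their log2 changes were 0.23 ± 0.19 (SE; 95% interval -0.22 to 0.67, limma adjusted p = 0.443) and 0.11 ± 0.20 (SE; 95% interval -0.37 to 0.58, limma adjusted p = 0.760). Changes of about 1.5-fold upward are inside these intervals.

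Bhlhe40, an E-box binding repressor that many stimuli induce (probe set 10540472), read 855, 570 and 1014 in knock-in and 975, 1149 and 690 in wild-type mice. The spread inside each genotype was wide (SD 225 and 232), and the log2 change was -0.21 ± 0.25 (SE; 95% interval -0.79 to 0.37, limma adjusted p = 0.605). Without knock-in mouse 3, its lowest mouse, the log2 change was 0.02. Bhlhe41, its paralog (probe set 10549276), read 35, 30 and 35 in knock-in and 45, 30 and 31 in wild-type mice. Its mean lay under the 25th percentile of probe sets, 38.7 intensity units, so it was not tested, and in a fit without that limit the log2 change was -0.05 ± 0.11 (SE, limma adjusted p = 0.841).

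Wee1, the kinase gene through which the clock reaches the cell cycle in liver, was lower in all knock-in mice. Its probe set (10556266) read 173, 166 and 168 in knock-in and 986, 776 and 510 in wild-type mice, so the wild-type mice varied widely while the knock-in mice lay within 7 intensity units of each other. Wee1 fell 4.04-fold (log2 change -2.01 ± 0.22 (SE), 95% interval -2.52 to -1.51, limma adjusted p = 0.00117). The order of the wild-type mice, number 2 highest and number 6 lowest, was the same as for Dbp. Of 8 tested genes (10 listed) around WEE1 at entry into mitosis, which include its target Cdk1, 1 rose, 2 fell and 5 did not pass. Of all tested probe sets 15.0% rose and 10.9% fell (13.2% and 14.3% of genes with a window). The median log2 change of the 8 was -0.01, against 0.03 over all tested probe sets. Chek1, a checkpoint kinase gene, read 229, 178 and 171 in knock-in and 43, 50 and 49 in wild-type mice and rose 3.27-fold (limma adjusted p = 0.000277). Ccnb2, a mitotic cyclin gene, was low in all mice (70 to 80 in knock-in, 117 to 132 in wild-type) and fell 1.55-fold (limma adjusted p = 0.00215). Cdk2 fell 1.38-fold (limma adjusted p = 0.0243), and it no longer passed without knock-in mouse 1 or 5 or wild-type mouse 2 or 6 (limma adjusted p = 0.0522 to 0.0853), which leaves 1 lower gene of the 8. Cdk1, the kinase that WEE1 inhibits, read 78, 108 and 78 against 102, 110 and 120 (log2 change -0.29 ± 0.13 (SE), limma adjusted p = 0.131). Without knock-in mouse 3 Cdk1 passed (log2 change -0.43, limma adjusted p = 0.0165), which makes 3 lower genes.

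**Figure D3:**
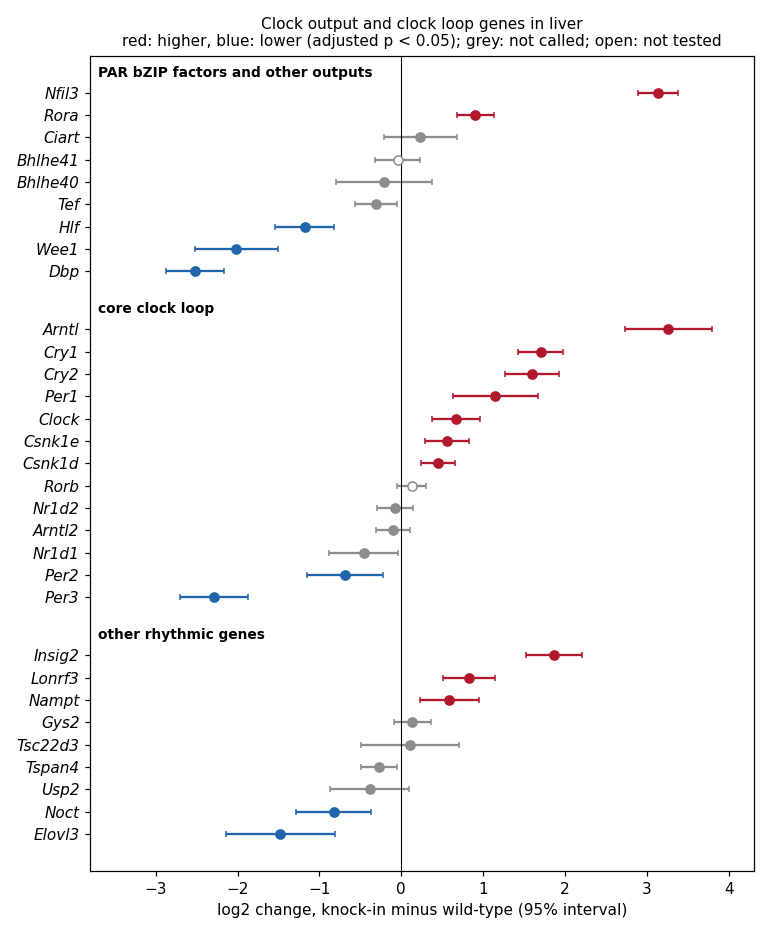
Log2 change from wild-type to knock-in liver (horizontal axis) with its 95% interval from limma, n = 3 mice per genotype, for the clock outputs, the core loop and other rhythmic liver genes, ordered by change inside each set. Nfil3 (3.13) and Arntl (3.26) stand at the top, and Dbp (-2.52), Per3 (-2.29) and Wee1 (-2.01) at the bottom.

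The core loop genes give the setting for these outputs. Of 12 tested (16 listed), 7 rose, 2 fell and 3 did not pass, with a median log2 change of 0.50. Among all tested probe sets 15.0% rose and 10.9% fell (13.2% and 14.3% of genes with a window). Rorb lay under the limit for testing. Arntl, which encodes BMAL1, read 1092, 564 and 981 in knock-in and 69, 75 and 78 in wild-type mice. Its partner gene Clock rose 1.59-fold (limma adjusted p = 0.00818). The repressor genes Cry1 and Cry2 rose 3.25-fold and 3.02-fold (limma adjusted p = 0.000302 and 0.000653), and the casein kinase genes Csnk1d and Csnk1e rose 1.36-fold and 1.47-fold (limma adjusted p = 0.00967 and 0.0115).

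The 3 period genes did not move together. Per3 read 138, 204 and 156 in knock-in and 907, 1012 and 700 in wild-type mice and fell 4.88-fold (limma adjusted p = 0.000430). Per1 read 1829, 1294 and 2098 in knock-in and 600, 973 and 753 in wild-type mice and rose 2.22-fold (limma adjusted p = 0.00942). The windows printed above for Per3 and Per1 hold a D-box, and the second window of Per1 does not. Per2 fell 1.61-fold (limma adjusted p = 0.0406), a call lost without knock-in mouse 1 or 3, without any single wild-type mouse, and with no filter (limma adjusted p = 0.0559 to 0.119), which leaves 1 lower gene of the 12. Arntl2 did not pass (limma adjusted p = 0.449).

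Of 9 other rhythmic liver genes tested (11 listed), 3 rose, 2 fell and 4 did not pass. These counts stand beside 15.0% and 10.9% of all tested probe sets, and 13.2% and 14.3% of genes with a window. The median log2 change of the 9 was 0.10. With single mice left out it ran from -0.22, without wild-type mouse 2, to 0.17, without wild-type mouse 4. Insig2, a brake on sterol synthesis, rose 3.65-fold (limma adjusted p = 0.000442), Lonrf3 1.77-fold (limma adjusted p = 0.00508) and Nampt, of NAD synthesis, by 0.59 on the log2 scale (limma adjusted p = 0.0276). The call of Nampt was lost without knock-in mouse 1 or any single wild-type mouse (limma adjusted p = 0.0506 to 0.0840). Elovl3, a fatty acid elongase gene, fell 2.79-fold (limma adjusted p = 0.00905). Noct, which encodes the phosphatase nocturnin, fell 1.78-fold (limma adjusted p = 0.0190), a call lost without knock-in mouse 1 or wild-type mouse 4 or 6 (limma adjusted p = 0.0634 to 0.0692), leaving 1 lower gene. Usp2 (log2 change -0.39), Tspan4 (-0.28), Tsc22d3 (0.10) and Gys2 (0.13) did not pass. Without knock-in mouse 3, Usp2 and Tspan4 passed as lower (limma adjusted p = 0.0255 and 0.0221), which makes 4.

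Genes reported as targets of the PAR bZIP factors or of NFIL3 in liver were lower more often than higher. Of 13 tested (16 listed), 7 fell, 3 rose and 3 did not pass. Of all tested probe sets, 10.9% fell and 15.0% rose (14.3% and 13.2% of genes with a window). This list, like the others, was chosen with earlier results of these data known, so its counts are a description and not a test. The median log2 change of the 13 was -0.71, against 0.03 over all tested probe sets. Nr1i3, the gene of the xenobiotic receptor CAR, read 1256, 1452 and 1425 in knock-in and 3786, 4044 and 4115 in wild-type mice and fell 2.87-fold (limma adjusted p = 0.000178). Ppara, the receptor of fatty acid oxidation, fell 2.95-fold (limma adjusted p = 0.00169). The acyl-CoA thioesterase genes Acot2, Acot3 and Acot4 fell 2.85-fold, 7.51-fold and 4.09-fold (limma adjusted p = 0.00313, 0.000694 and 0.00208). Their paralog Acot1 fell 3.58-fold (limma adjusted p = 0.021). The close sequence similarity of these Acot genes means that probes may read more than 1 of them. They may therefore not be separate entries in the count of genes that fell. Alas1 fell 1.56-fold (limma adjusted p = 0.0228). Cyp2b10, a detoxifying cytochrome P450 gene that CAR induces, did the opposite: it read 6094, 5535 and 7320 in knock-in and 1087, 2233 and 1302 in wild-type mice and rose 4.24-fold (limma adjusted p = 0.00171). Its RefSeq window also holds a D-box, which begins 58 bases before the start. The cytochrome P450 genes Cyp2c37 and Cyp3a11 also rose, by 1.34-fold and 1.26-fold (limma adjusted p = 0.0289 and 0.0306). The number that rose was 1 with each array centred on its median and without knock-in mouse 1 or wild-type mouse 2 or 4. The number that fell ran from 5 (without knock-in mouse 5) to 8 (array weights, 1 probe set per gene, or without knock-in mouse 3). With only the brighter 50% of probe sets tested, 12 of these genes remained and their median was -1.11.

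All genes whose RefSeq promoter window holds a motif that these factors or their regulators bind were also read by their brightest tested probe set, a description chosen after the data were seen and without a test. Of all 12727 tested genes with a window, 13.2% rose and 14.3% fell by limma at an adjusted p below 0.05, with a median log2 change of 0.00. Of 216 genes with a D-box, 26 rose and 49 fell (12% and 22.7%, median -0.03). Of 321 genes with the ROR/REV-ERB motif, 35 rose and 55 fell (10.9% and 17.1%, median -0.02). Of 1353 genes with an E-box, 215 rose and 211 fell (15.9% and 15.6%, median 0.01). Of 390 genes with the cyclic AMP response element, 92 rose and 39 fell (23.6% and 10%, median 0.05). A match in these windows does not show binding by any factor.

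Several of these genes are also expressed in immune or stromal cells, so marker lists were read on the same arrays, with all 6 mice. The counts below stand beside 15.0% higher and 10.9% lower among all tested probe sets, and 13.2% and 14.3% among genes with a window. Of 7 hepatocyte markers 2 were called higher (Hnf4a and Tat) and the rest not, with a summed intensity of 100082 to 107694 in knock-in and 91569 to 94955 in wild-type mice. Nfil3 is needed for natural killer cells, and 6 of 9 markers of these and other innate lymphoid cells lay under the limit for testing, Ncr1 at 23 to 28 and Eomes at 20 to 23, while 0 of the other 3 were called (sums of 384 to 399 in knock-in and 400 to 432 in wild-type mice). Of 4 tested T and B cell markers 1 was lower (sums of 394 to 433 against 438 to 507, median log2 change of the tested markers -0.20). Of 8 Kupffer cell markers 1 was called lower (2175 to 4197 against 3734 to 6361), with a median log2 change of -0.49. Of 8 sinusoidal endothelial markers 1 was higher and 5 lower (5109 to 7013 against 6865 to 7372, median log2 change -0.44). Of 5 tested neutrophil markers 3 were higher (479 to 516 against 332 to 403). Those 3 (S100a8, Retnlg and Mmp9) were dim, at 34 to 102 intensity units over all mice, with the limit for testing at 38.7. S100a9 and Csf3r were not called. Of 7 stellate cell and fibroblast markers 1 was higher (Dcn) and 1 lower (Lrat), with sums of 7575 to 8955 against 6675 to 7584. That sum is mostly Dcn (5978 to 6736 against 4225 to 4891), and the median log2 change of the 7 was -0.14. Any such sum mainly follows its brightest probe sets. Of 4 cholangiocyte markers 0 were called (368 to 394 against 367 to 391). The part of these cells in the changes of the clock outputs was not tested.

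For each clock output that rose or fell, the 2 most similar of 11758 named genes were found by Pearson correlation of log2 values over the 6 arrays, which form 2 genotype groups and share that difference. Dbp was matched by Sp100 (r = 1.000), a nuclear body gene that read 146 to 161 in knock-in and 256 to 277 in wild-type mice, and by Tnfrsf14 (r = 0.999). Hlf was matched by Rsrp1 and Iqcc (r = 0.998 and 0.997), and Wee1 by Gsap and Rmi1 (r = 0.999 for both), of which Gsap read 149, 155 and 145 in knock-in and 710, 544 and 385 in wild-type mice. Nfil3 was matched by Ppp1cb (r = 1.000), a catalytic subunit of protein phosphatase 1 that read 2685 to 2721 in knock-in and 1681 to 1735 in wild-type mice, and by Ranbp2 (r = 0.999), a nuclear pore gene. Rora was matched by Cyp26a1 (r = 0.999), the retinoic acid hydroxylase gene, which read 2830, 2120 and 3225 in knock-in and 230, 114 and 174 in wild-type mice, and by the repair gene Ercc5 (r = 0.998). Similar order over 6 arrays does not mean similar size, since Sp100 changed by -0.73 and Ppp1cb by 0.65 on the log2 scale.

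**Figure D4:**
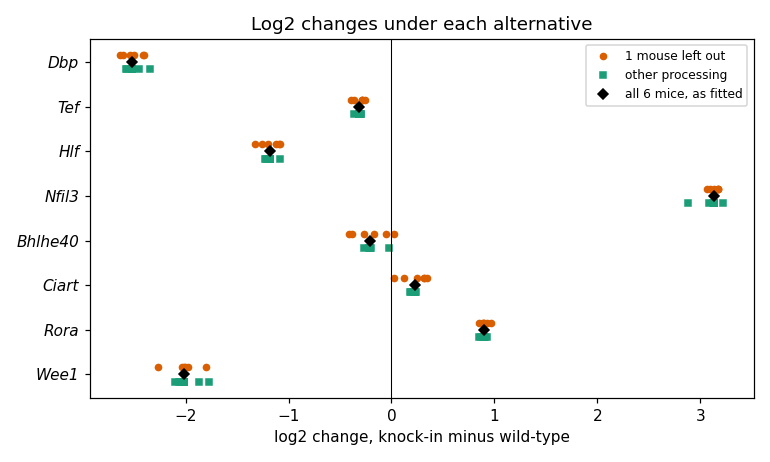
Log2 change of the 8 tested clock outputs (horizontal axis) with all 6 mice (black), with 1 mouse left out (orange) and under other processing (green). Dbp stays between -2.63 and -2.34, Nfil3 between 2.88 and 3.22 and Wee1 between -2.27 and -1.77, and the points of Bhlhe40 lie on both sides of 0.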

How the data were processed

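Total liver RNA was labelled with biotin and hybridised to 1-colour arrays, per the labels' protocols. The authors' deposited table holds linear intensities in whole numbers, a value for each probe set of each array. Probe summary, background correction and normalization are not given in the sources used here. Columns were matched to mice by sample identifier, and probe sets to genes by the platform annotation (21789 with 1 symbol, 1621 with several, 12102 unlisted). Coordinates belong to the RefSeq windows only, since no build is named for the probe sets.

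Values were taken as log2(intensity + 16), the scale of all fold changes, which understates those of dim genes. Array medians differed by 0.087 on it, under the limit of 0.1 (and by 0.1005, just above it, without the pseudocount), with an exact two-sided permutation p = 0.2 between genotypes (0.1 is the smallest that 3 against 3 allow), so no scaling was added. Probe sets with a mean under the 25th percentile were left out. limma 3.58.1 in R 4.3.3 (lmFit, eBayes with a mean-variance trend) compared knock-in with wild-type, and p-values were Benjamini-Hochberg adjusted over 26664 probe sets. The procedure was tested on simulated data. A gene with several probe sets is represented by the brightest. The genes and lists were chosen with earlier results of these data known. The named genes are the 9 clock outputs, all genes of the core loop and other rhythmic lists, up to 6 by smallest p from the remaining lists, and the 2 best correlated genes (clone names and dim probe sets left out). Acot1 was added beside its paralogs, and Alas1, Cyp2c37 and Cyp3a11 as the other called genes of the target list. Alternatives were pseudocounts of 1 and 64, quantile normalization, median centring, other filters, eBayes options, array weights, 1 probe set per gene, other thresholds, and each mouse left out. Each array is a separate mouse by its label. Figures were drawn with matplotlib 3.10.9.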

Additional observations from a re-analysis of the deposited data

How the results depend on the processing

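No paired analysis was run. The labels used here state no pairing between the knock-in mice (1, 3 and 5) and the wild-type mice (2, 4 and 6). The 5 clock outputs called with all 6 mice (Dbp, Hlf, Nfil3, Rora and Wee1) were called in the same direction under each of the 18 alternatives tried, and Tef joined them under 3. Over all probe sets, 6904 were called, against 4237 to 7750 with 1 mouse left out (4237 when knock-in mouse 1 was left out, 4493 for wild-type mouse 2 and 4559 for wild-type mouse 6) and 3862 when a change of at least 1.5-fold was also asked for. In the other alternatives the count stayed within 1.5 times. Why single mice move the count this far was not tested, beyond the smaller number of mice. With 1 mouse left out the log2 change of Bhlhe40 ran from -0.41 to 0.02 and that of Tsc22d3 from -0.22 to 0.30. The sign turned for Bhlhe40 without knock-in mouse 3 (0.02) and for Tsc22d3 without wild-type mouse 2 (-0.22), neither of which was called in either fit. The list counts, other than those of the marker lists, were recomputed under 16 of these alternatives (not the other thresholds), which was decided after seeing the data. With 3 mice per genotype, signal near the lower end of the arrays limits what can be said of Bhlhe41.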
